A study of Mus musculus with 4 samples.

Results

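Cyclins, the cyclin-dependent kinases (CDKs) that they switch on, the inhibitors of these kinases and the E2F and RB proteins that read their activity form the core of cell-cycle control. A list of 35 genes of this core was read from the 54752 genes counted in cultured CD4+ T cells of WT mice and of mice with a T-cell deletion aimed at the kinases MEK1 and MEK2. The members were chosen by gene name, and all 35 were matched. The cells were naïve CD4+ T cells isolated from the spleens of WT mice and of Mek1/2-tKO mice (Cd4-Cre+, with both alleles of Map2k1 and of Map2k2 floxed, made on a C57BL/6 background), in which Cre acts in T cells from their development in the thymus onwards. Both groups were stimulated through CD3 and CD28 in medium with IL-6 and with antibodies that neutralise TGF-β, IL-4, IFN-γ and IL-2, to drive them towards T follicular helper (Tfh) cells, and on day 3 viable cells were sorted for RNA sequencing. There were 2 libraries of each genotype. Whether the WT donors carried Cre or floxed alleles, the age and sex of the donors, and whether the 2 libraries of a genotype came from different mice are not given in the sources used here, so the p values measure the spread between these libraries, which may be technical.

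In a resting T cell, RB and its relatives (the pocket proteins) hold E2F transcription factors in check. Stimulation raises the D-type cyclins, which activate CDK4 and CDK6 to phosphorylate the pocket proteins and release E2F, and E2F in turn drives the genes of cyclin E, cyclin A and DNA synthesis. INK4 inhibitors bind CDK4 and CDK6, CIP/KIP inhibitors act on CDK complexes more widely, and CDC25 phosphatases remove the inhibitory phosphate that WEE1 places on CDKs. The MEK-ERK pathway is among the signals that carry growth stimulation to this core.

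Each library held 16330802 to 18931090 counts, and 14330 genes had enough of them to be tested, among them 33 of the 35 members. Levels are given as CPM, counts scaled to a common library size, and the genotypes were compared with edgeR's quasi-likelihood test across all tested genes. A gene counted as called when it differed by 1.5-fold or more with an adjusted p under 0.05, and SE stands for the standard error of a log2 fold change. The targeted gene Map2k1 fell from 185 ± 4.01 to 102 ± 5.01 CPM (SD, n = 2 libraries each), while Map2k2 had 160 ± 7.18 CPM in WT against 177 ± 7.52 CPM in Mek1/2-tKO, and counts per gene include transcripts that lack the floxed exons. Markers of other cell types differed between the groups. All 12 B-lineage markers were called higher, with summed levels of 1304 and 1278 CPM in the WT libraries and 6958 and 6915 CPM in the Mek1/2-tKO libraries. So were 6 of 6 NK-cell markers (28.2 to 33 CPM in WT against 171 to 187 CPM). The same held for 5 of 5 CD8 and cytotoxic T-cell markers (1512 to 1546 against 5237 to 5857 CPM). The 2 tested gamma-delta T-cell markers and the 4 tested myeloid markers of 7 were also called higher. Summed over all 3 matched gamma-delta markers, levels were 1.74 to 1.76 CPM in WT against 56.1 to 59.9 CPM. This sum includes Trdv4, which was not tested and was at 0 in WT. Summed over all 7 myeloid markers, levels were 4.26 to 4.56 against 18.8 to 24.4 CPM, with Adgre1 at 0 in WT. Sox13, Klra8 and Adgre1, each under 0.3 CPM in WT, passed the filter on low counts only through the Mek1/2-tKO libraries, so that their calls follow from the filter. Of 10 markers of CD4 T cells 4 were called lower and 1 higher, and Cd4 itself went from 297 and 289 CPM in the WT libraries to 18.8 and 25.1 CPM. The part of these cells in the results below was not tested. In RNA of a mixed culture, fewer cells of a type and less RNA per cell cannot be told apart.

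In the Mek1/2-tKO libraries 3 genes of CDK inhibitors and 1 pocket protein gene were called higher, and 3 E2F genes and 2 CDC25 phosphatase genes were called lower, while none of the cyclins and CDKs among the members passed both thresholds. The higher ones were the inhibitor genes Cdkn1a, Cdkn2a and Cdkn2b and the pocket protein gene Rbl2. The lower ones were E2f3, E2f7, E2f8, Cdc25a and Cdc25b. These were 4 higher and 5 lower of 33 tested members, or 12.1% and 15.2%, beside 19.3% of all tested genes called higher and 16.4% called lower, so the number of calls among the members was no larger than in the libraries as a whole. Most differences were small. With the adjusted p alone and no demand on the fold change, 7 members were higher, beside 27.8% of all tested genes, and 17 were lower, or 51.5% of the members beside 27.2% of all tested genes. Both Mek1/2-tKO libraries lay above both WT libraries for 9 members (39.5% of all tested genes did so) and below them for 19 (38.8% of all tested genes). An unadjusted p under 0.05 was reached by 25 of the 33 members (75.8%) and by 59.5% of all tested genes. The median log2 fold change was -0.30 over the 33 members and 0.02 over all tested genes.

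**Figure D1:**
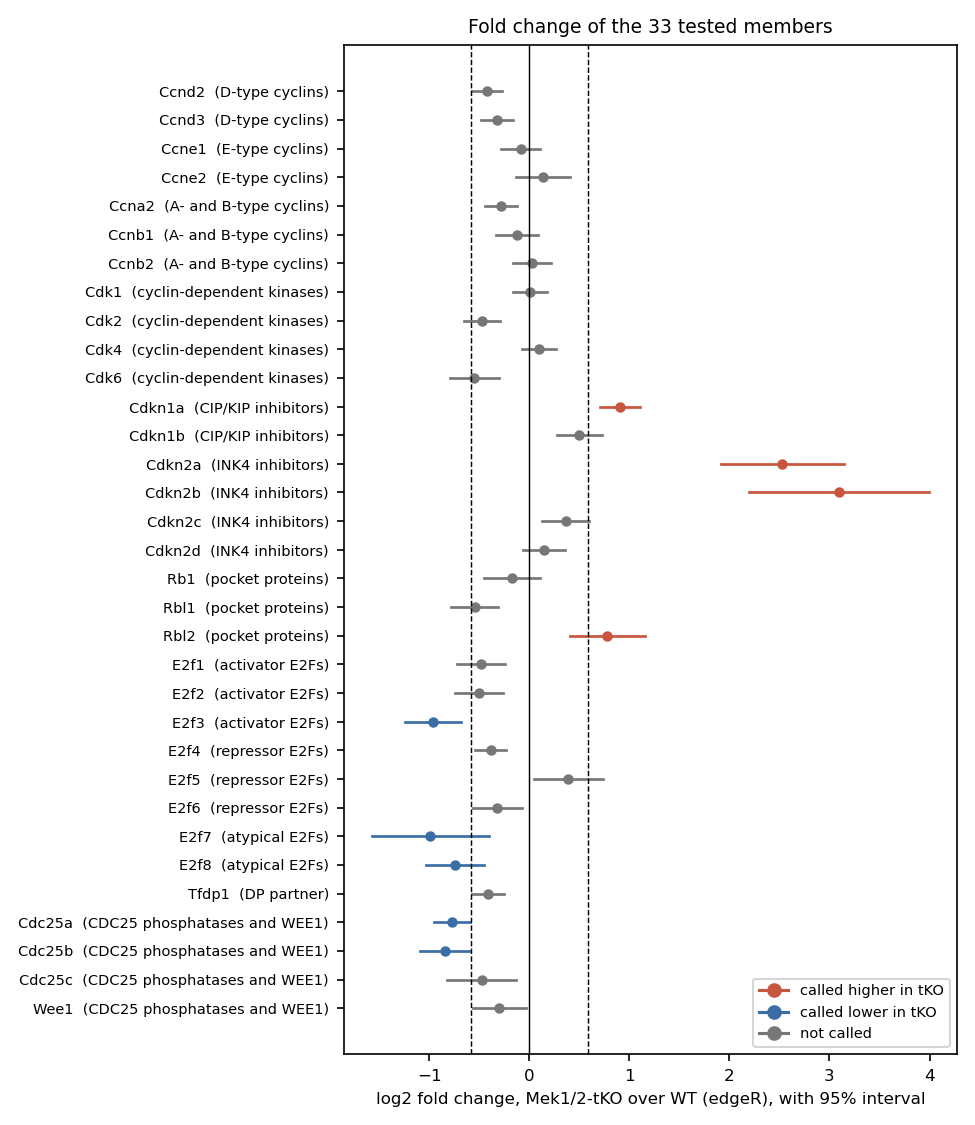
Log2 fold change of each tested member, Mek1/2-tKO over WT, as points with 95% intervals from the edgeR fit, ordered by family, with dashed lines at a 1.5-fold change. The 4 members called higher lie between 0.78 and 3.10, the 5 called lower between -0.99 and -0.74, and the other 24 lie inside the dashed lines.

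Before the values, the upstream sequences of 6 members are shown, because E2F proteins control each other's genes and several other members, and the E2F motif is the letter pattern by which such control is usually recognised. The table of RefSeq promoters (GRCm38.p6) held 32 start sites of 25 members, each with 250 bases before and 50 bases after the start. The motif was searched on both strands as TTTCCCGC, TTTCGCGC, TTTGGCGC and TTTGCCGC. It was present in 10 of the 32 member promoters, or 31.25%, in 4.04% of the 12172 promoters of tested genes and in 2.26% of all 32851 promoters. The 10 promoters belong to 9 of the 25 members, since overlapping promoters of Tfdp1 hold the same match. By call, 3 of the 6 promoters of members called lower held it, as did 1 of the 6 of members called higher and 6 of the 20 of members that were not called. Counted by gene, these were 3 of 5, 1 of 4 and 5 of 16. The CHR element, a motif of genes expressed late in the cycle, was searched as TTTGAA and as TTCGAA, which reads the same on both strands and was counted once, and was present in 8 of the 32 member promoters and 14.4% of the promoters of tested genes. A match is a run of letters and not evidence of binding. The 250 bases before the start follow in the direction of transcription, with the matches to either motif in capitals.

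The promoters of Cdc25a (chr9:109875329-109875578, plus strand), E2f7 (chr10:110745189-110745438, plus strand) and E2f3 (chr13:29986064-29986313, minus strand) belong to genes called lower in Mek1/2-tKO.
Cdc25a: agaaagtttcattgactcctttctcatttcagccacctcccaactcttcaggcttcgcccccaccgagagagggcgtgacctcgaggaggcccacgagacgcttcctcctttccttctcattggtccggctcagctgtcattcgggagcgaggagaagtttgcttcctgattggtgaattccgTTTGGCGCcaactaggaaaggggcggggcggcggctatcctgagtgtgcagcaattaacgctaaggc
E2f7: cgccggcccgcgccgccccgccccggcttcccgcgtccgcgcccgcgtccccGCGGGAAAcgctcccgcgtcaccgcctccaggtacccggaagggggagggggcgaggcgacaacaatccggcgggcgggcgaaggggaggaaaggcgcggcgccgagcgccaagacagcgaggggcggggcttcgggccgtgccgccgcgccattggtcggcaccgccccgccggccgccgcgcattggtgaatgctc
E2f3: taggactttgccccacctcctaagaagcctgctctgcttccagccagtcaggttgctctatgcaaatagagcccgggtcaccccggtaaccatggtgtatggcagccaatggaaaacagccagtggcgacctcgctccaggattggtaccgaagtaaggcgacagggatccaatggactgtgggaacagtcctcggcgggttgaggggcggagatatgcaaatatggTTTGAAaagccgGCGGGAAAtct

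The promoters of Rbl1 (chr2:157204535-157204784, minus strand) and Cdk1 (chr10:69352913-69353162, minus strand) are shown for comparison, since neither gene was called although both carry the motif.
Rbl1: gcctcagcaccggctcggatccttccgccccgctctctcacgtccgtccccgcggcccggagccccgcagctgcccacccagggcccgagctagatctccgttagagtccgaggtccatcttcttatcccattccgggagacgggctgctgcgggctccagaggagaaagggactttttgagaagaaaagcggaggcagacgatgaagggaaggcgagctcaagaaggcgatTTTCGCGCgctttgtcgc
Cdk1: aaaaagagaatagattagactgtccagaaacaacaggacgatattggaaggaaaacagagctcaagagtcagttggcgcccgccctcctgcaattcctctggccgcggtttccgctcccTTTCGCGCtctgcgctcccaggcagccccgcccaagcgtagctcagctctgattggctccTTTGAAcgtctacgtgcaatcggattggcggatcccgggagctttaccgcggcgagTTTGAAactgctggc

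The promoter of Cdkn2a (chr4:89294620-89294869, minus strand) is that of the distal of its 2 start sites, from which the transcript for ARF begins, and it is shown because Cdkn2a is the member called higher that holds the E2F letters.
Cdkn2a: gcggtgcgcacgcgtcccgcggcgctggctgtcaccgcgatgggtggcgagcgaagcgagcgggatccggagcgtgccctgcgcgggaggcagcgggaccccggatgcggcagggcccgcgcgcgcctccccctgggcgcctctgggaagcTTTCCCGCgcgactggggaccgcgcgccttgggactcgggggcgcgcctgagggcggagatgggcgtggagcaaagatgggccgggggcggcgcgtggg

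The motif lies 67 bases before the start in Cdc25a, 198 in E2f7, 11 in E2f3, 18 in Rbl1, 131 in Cdk1 and 99 in Cdkn2a, counted from its first letter in the printed direction. Genes with these letters therefore stood among the members that were lower, not called and higher.

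The inhibitors of the INK4 family had the largest fold changes of the list. Cdkn2b (ENSMUSG00000073802.5, chromosome 4, 89306299 to 89311039), whose product binds CDK4 and CDK6, was counted 10 and 12 times in WT against 78 and 90 times in Mek1/2-tKO, or 0.513 and 0.622 CPM against 5.04 and 4.79 CPM. The libraries of the genotypes lay far apart, at a low level. Its log2 fold change was 3.10 (SE 0.42, edgeR adjusted p = 2.88e-05), or 8.56-fold. Cdkn2b passed the filter on low counts only with the help of the Mek1/2-tKO libraries, since WT replicate 1 fell just short of it. With a filter of at least 10 counts in every library, the log2 fold change of Cdkn2b was 3.12. Its neighbour Cdkn2a (ENSMUSG00000044303.6, chromosome 4, 89274471 to 89294653), which encodes both INK4A and ARF, had 34 and 27 counts in WT and 132 and 182 counts in Mek1/2-tKO, or 1.74 and 1.4 CPM against 8.53 and 9.69 CPM. The log2 fold change of Cdkn2a was 2.53 (SE 0.29, edgeR adjusted p = 6.23e-06), and counts per gene cannot tell the transcripts of INK4A and ARF apart. The more abundant members of the family moved less. Cdkn2c had 33 and 32.9 CPM in WT against 43.0 and 41.9 CPM in Mek1/2-tKO, with a log2 fold change of 0.36 that passed the adjusted p (0.0126 from edgeR) and not the fold change. Cdkn2d had 60.7 and 58.4 CPM in WT against 68.0 and 64.4 CPM in Mek1/2-tKO, a log2 fold change of 0.15 with a 95% interval from -0.06 to 0.36. Per exon length the family remained dominated by Cdkn2d, which made up 73.2% and 72.7% of the summed RPKM (CPM per kilobase of exon) in WT and 61.6% and 60.0% in Mek1/2-tKO, while Cdkn2a stood at 2.82% and 2.34% in WT against 10.4% and 12.1% in Mek1/2-tKO. The share of Cdkn2b was 0.700% and 0.878% in WT against 5.17% and 5.06% in Mek1/2-tKO.

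Of the CIP/KIP inhibitors, Cdkn1a (ENSMUSG00000023067.14, chromosome 17, 29090976 to 29100727), a CDK inhibitor under the control of p53 among other factors, rose from 51.5 and 53.2 CPM in the WT libraries to 99.7 and 96.9 CPM in the Mek1/2-tKO libraries. The libraries of a genotype differed by far less than the genotypes did, and the log2 fold change was 0.91 (SE 0.09, edgeR adjusted p = 2.42e-06). Cdkn1b, the inhibitor that is abundant in resting T cells and is broken down when they enter the cycle, had 45.3 and 43.2 CPM in WT against 59.6 and 65.7 CPM in Mek1/2-tKO. Its groups did not overlap, but its log2 fold change of 0.50 (adjusted p = 0.00107 from edgeR) fell short of the fold change threshold. Cdkn1c, the inhibitor best known from development, had 3 to 6 counts in every library and was not tested. Within the family the share of Cdkn1a in the summed RPKM went from 60.0% ± 1.32 to 66.6% ± 1.85 (SD, n = 2 each), and the smallest p of an exact two-sided permutation test at this size is 0.33.

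**Figure D2:**
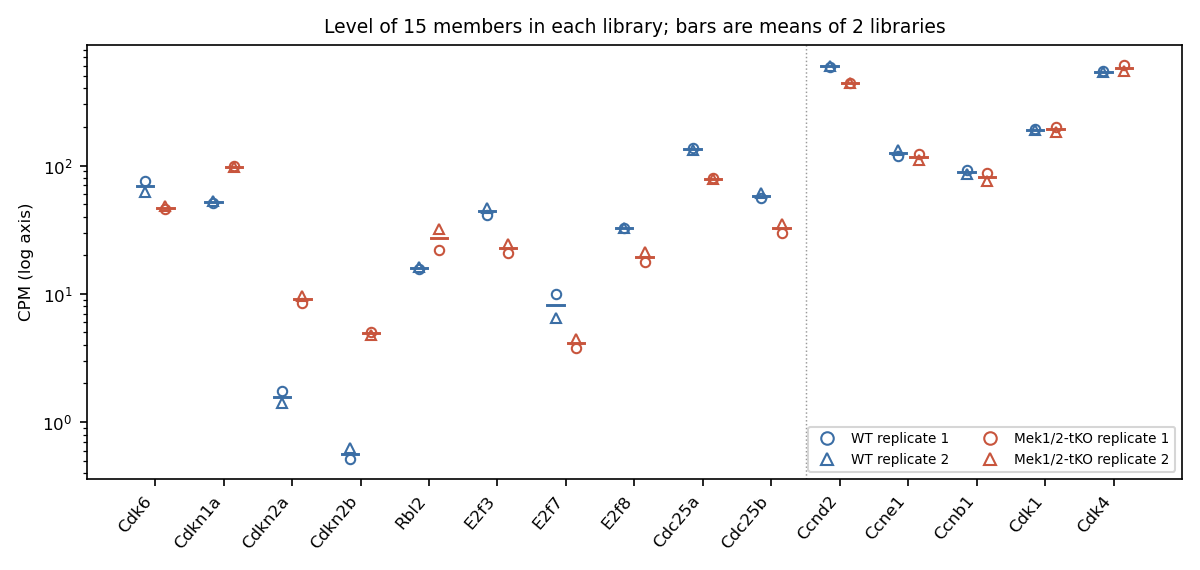
CPM on a log axis of the 9 called members and Cdk6, left of the dotted line, and of 5 members that were not called, right of it, with circles and triangles for replicates 1 and 2 and bars for the means. Cdkn2a and Cdkn2b lie under 2 CPM in WT and between 4.79 and 9.69 CPM in Mek1/2-tKO, whereas the points of Cdk1, Ccne1 and Ccnb1 overlap between the genotypes.

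The pocket proteins, which bind E2F and repress its targets, moved in different directions. Rbl2 (ENSMUSG00000031666.15, chromosome 8, 91070057 to 91123844), the member of the family typical of resting cells, had 15.5 and 16.1 CPM in WT against 22 and 32.2 CPM in Mek1/2-tKO. Both Mek1/2-tKO libraries were above both WT libraries, but they differed from each other. The log2 fold change of Rbl2 was 0.78 (SE 0.17, edgeR adjusted p = 0.0018), and without Mek1/2-tKO replicate 2 it was 0.47 and under the fold change threshold. Genes on the other strand, mainly Aktip, share 21.0% of its exon bases, and since the strand setting of the counting is not known, reads of these genes may be among its counts. The same limit applies to other members, among them Rb1 (14.9% shared with Rcbtb2 and Lpar6), Ccne2 (17.4%, with Ints8) and Cdk4 (19.7%, with Tspan31). Rbl1, the relative that accumulates in dividing cells, had 68.1 and 64.8 CPM in WT against 41.8 and 49.3 CPM in Mek1/2-tKO. Its log2 fold change of -0.54 (adjusted p = 8.42e-04 from edgeR) was just short of the threshold of 1.5-fold, which it passed without Mek1/2-tKO replicate 2 (-0.68) and with library size scaling (-0.63), whereas it was -0.43 without Mek1/2-tKO replicate 1 and -0.28 with the trend on exon length, described below, taken out. Rb1 itself had 31.1 and 27.3 CPM in WT against 25.7 and 26.1 CPM in Mek1/2-tKO, and its log2 fold change of -0.17 had a 95% interval from -0.45 to 0.10. In the summed RPKM of the family, Rbl1 went from 61.5% ± 0.513 to 49.0% ± 0.284 and Rbl2 from 11.6% ± 0.796 to 23.0% ± 3.36 (SD, n = 2 each).

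**Figure D3:**
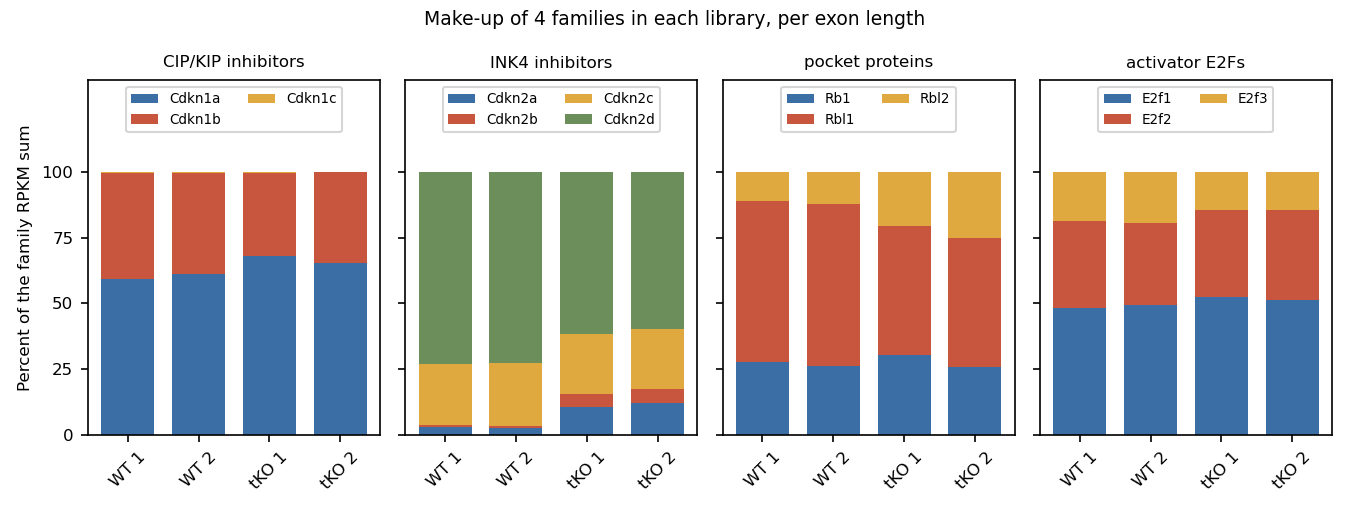
Share of each gene in the summed RPKM of its family (percent) in each of the 4 libraries, for the CIP/KIP inhibitors, the INK4 inhibitors, the pocket proteins and the activator E2Fs. Cdkn2a and Cdkn2b take up more of the INK4 family in both Mek1/2-tKO libraries, and Rbl2 more of the pocket proteins.

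The E2F genes were mostly lower. Among the activators, which drive S-phase genes, E2f3 (ENSMUSG00000016477.18, chromosome 13, 29906575 to 29986063) fell from 41.3 and 47.0 CPM in WT to 20.7 and 24.7 CPM in Mek1/2-tKO, a log2 fold change of -0.96 (SE 0.13, edgeR adjusted p = 3.41e-05). E2f1 had 62.4 and 69.0 CPM in WT against 43.6 and 50.4 CPM in Mek1/2-tKO, and E2f2 had 66.7 and 67.5 CPM against 43.0 and 51.9 CPM. For all 3 activators both Mek1/2-tKO libraries lay below both WT libraries, as they did for 38.8% of all tested genes. The log2 fold changes of E2f1 (-0.48, adjusted p = 0.00214) and E2f2 (-0.50, adjusted p = 0.0018, both from edgeR) were under the fold change threshold, which both passed without Mek1/2-tKO replicate 2 (-0.60 and -0.65). The atypical E2Fs, which are E2F targets and repress the other E2F targets, were both called. E2f8 (ENSMUSG00000046179.17, chromosome 7, 48866429 to 48881596) fell from 32.7 and 32.4 CPM to 17.7 and 21.1 CPM, with a log2 fold change of -0.74 (SE 0.13, edgeR adjusted p = 3.81e-04). E2f7 (ENSMUSG00000020185.16, chromosome 10, 110745439 to 110787384) had 9.96 and 6.43 CPM in WT against 3.81 and 4.42 CPM in Mek1/2-tKO. Its WT libraries differed, and its log2 fold change of -0.99 (SE 0.27, edgeR adjusted p = 0.00725) was -0.64 without WT replicate 1, with an adjusted p of 0.143 from edgeR.

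The repressor E2Fs and the partner subunit were not called. E2f4, which acts with the pocket proteins in resting cells and was the most abundant E2F gene per length, had 281 and 284 CPM in WT against 215 and 218 CPM in Mek1/2-tKO, a log2 fold change of -0.39 (adjusted p = 4.89e-04 from edgeR). Tfdp1, which encodes the DP subunit that pairs with E2F, had 312 and 317 CPM against 231 and 241 CPM, a log2 fold change of -0.41 (adjusted p = 2.96e-04 from edgeR). E2f6 had a log2 fold change of -0.32 (adjusted p = 0.0295 from edgeR). E2f5 went the other way, with 13.7 and 14.6 CPM in WT against 19.96 and 17.2 CPM in Mek1/2-tKO, a log2 fold change of 0.39 whose adjusted p of 0.0498 from edgeR was close to the limit. Thus 7 of the 8 E2F genes were lower by the adjusted p alone, beside 27.2% of all tested genes. Of these, 3 were lower also by the fold change, beside 16.4% of all tested genes.

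The phosphatases that activate CDKs were lower. Cdc25a (ENSMUSG00000032477.14, chromosome 9, 109875579 to 109893895), which acts at the entry into S phase, fell from 136 and 133 CPM in WT to 79.3 and 78.9 CPM in Mek1/2-tKO, with a log2 fold change of -0.77 (SE 0.08, edgeR adjusted p = 4.92e-06). Cdc25b (ENSMUSG00000027330.16, chromosome 2, 131186949 to 131198497), which acts before mitosis, fell from 55.4 and 61.1 CPM to 30.0 and 34.8 CPM, with a log2 fold change of -0.84 (SE 0.12, edgeR adjusted p = 3.60e-05). For both genes the libraries of the genotypes were well separated. Cdc25c had 17.6 and 19.9 CPM against 12.4 and 14.4 CPM, and its log2 fold change of -0.48 (adjusted p = 0.0231 from edgeR) passed the fold change threshold only without Mek1/2-tKO replicate 2 (-0.60) and when the trend on exon length was taken out (-0.71). Wee1, the kinase that opposes them, had 31.6 and 32.0 CPM in WT against 25.9 CPM in both Mek1/2-tKO libraries, a log2 fold change of -0.30 with an adjusted p of 0.0512 from edgeR.

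The cyclins changed little. The D-type cyclin of these cells was mainly Ccnd2, with 591 and 596 CPM in WT against 443 CPM in both Mek1/2-tKO libraries, and its log2 fold change of -0.42 (adjusted p = 2.18e-04 from edgeR) had a 95% interval from -0.58 to -0.27. Ccnd3 had 324 and 340 CPM against 263 and 268 CPM, a log2 fold change of -0.32 (adjusted p = 0.00196 from edgeR). Both genes were lower by the adjusted p and short of 1.5-fold, and with the trend on exon length taken out they were at -0.025 and 0.056. Ccnd1, the D-type cyclin of many non-lymphoid cells, had 2 and 4 counts in WT and 2 and 11 counts in Mek1/2-tKO and was not tested. Per length Ccnd2 made up 62.5% ± 0.645 of the D-type cyclins in WT and 60.8% ± 0.285 in Mek1/2-tKO (SD, n = 2 each), so that the balance of Ccnd2 and Ccnd3 shifted by under 2 percentage points. Of the later cyclins, Ccna2, which serves S phase and G2, had 267 and 256 CPM in WT against 213 and 217 CPM in Mek1/2-tKO, a log2 fold change of -0.28 (adjusted p = 0.00488 from edgeR). The E-type cyclins, which start S phase with CDK2, and the mitotic B-type cyclins overlapped between the genotypes. The 95% intervals of their log2 fold changes ran from -0.28 to 0.11 for Ccne1, from -0.13 to 0.41 for Ccne2, from -0.33 to 0.09 for Ccnb1 and from -0.16 to 0.22 for Ccnb2, all inside a 1.5-fold change.

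Among the CDKs, Cdk1, the kinase of mitosis, had 192 and 188 CPM in WT against 201 and 181 CPM in Mek1/2-tKO, and the 95% interval of its log2 fold change ran from -0.16 to 0.18. Cdk4 had 545 and 534 CPM in WT against 606 and 548 CPM in Mek1/2-tKO, with an interval from -0.07 to 0.26, so that both intervals exclude a 1.5-fold change. Cdk2, the partner of cyclins E and A, was lower, with 124 and 126 CPM against 91.7 and 88.0 CPM and a log2 fold change of -0.47 (adjusted p = 3.37e-04 from edgeR). Cdk6, which acts beside CDK4, had 75.6 and 61.9 CPM in WT against 45.9 and 48.1 CPM in Mek1/2-tKO. Its log2 fold change of -0.55 (SE 0.11, edgeR adjusted p = 0.00107) missed the threshold and passed it with library size scaling (-0.63), without WT replicate 2 (-0.69) and without Mek1/2-tKO replicate 2 (-0.59), whereas it was -0.06 with the trend on exon length taken out. Per length, Cdk4 was the most abundant member in both genotypes, with a mean RPKM of 166 in WT and 178 in Mek1/2-tKO, and made up 97.1% and 98.1% of the sum of Cdk4 and Cdk6. It was followed in WT by E2f4 (115 RPKM) and Tfdp1 (85.6 RPKM), and then by Ccna2 (64.1 RPKM), Ccnb2 (63.5 RPKM) and Ccnd2 (63.1 RPKM), whose levels overlapped between libraries so that their order is not settled. The least abundant tested members in WT were Cdkn2b (0.408 RPKM) and E2f7 (0.910 RPKM). Of the 24 members that were tested and not called, 15 had a 95% interval wholly inside a 1.5-fold change in either direction, including all tested cyclins, Cdk1 and Cdk4. For the other 9 (Cdk2, Cdk6, Cdkn1b, Cdkn2c, Rbl1, E2f1, E2f2, E2f5 and Cdc25c) a change of 1.5-fold lay inside the interval.

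The fold changes of these libraries followed the length of the gene. Across the 14330 tested genes, which are not independent replicates, Spearman's rho of the log2 fold change with exon length was -0.39, and across the 33 members it was -0.54. The 1434 genes with the shortest exons (up to 749 bases) had a median log2 fold change of 0.61 and the 1433 with the longest (from 9068 bases) one of -0.45. Cdkn2a and Cdkn2b are short, with 1172 and 1390 exon bases, and Cdc25a and E2f7 are long, with 8023 and 9009. When the trend was taken out, Cdkn2b (2.82), Cdkn2a (2.23), Rbl2 (1.12), Cdkn1a (0.93), Cdc25b (-0.80), E2f3 (-0.73) and E2f7 (-0.60) stayed past the fold change threshold, whereas Cdc25a (-0.42) and E2f8 (-0.51) did not. Cdkn1b (0.65) newly passed among the higher members and Cdc25c (-0.71) among the lower ones, with the adjusted p values kept from the fit, and the median of the members went from -0.30 to -0.11. The source of the trend was not tested.

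**Figure D4:**
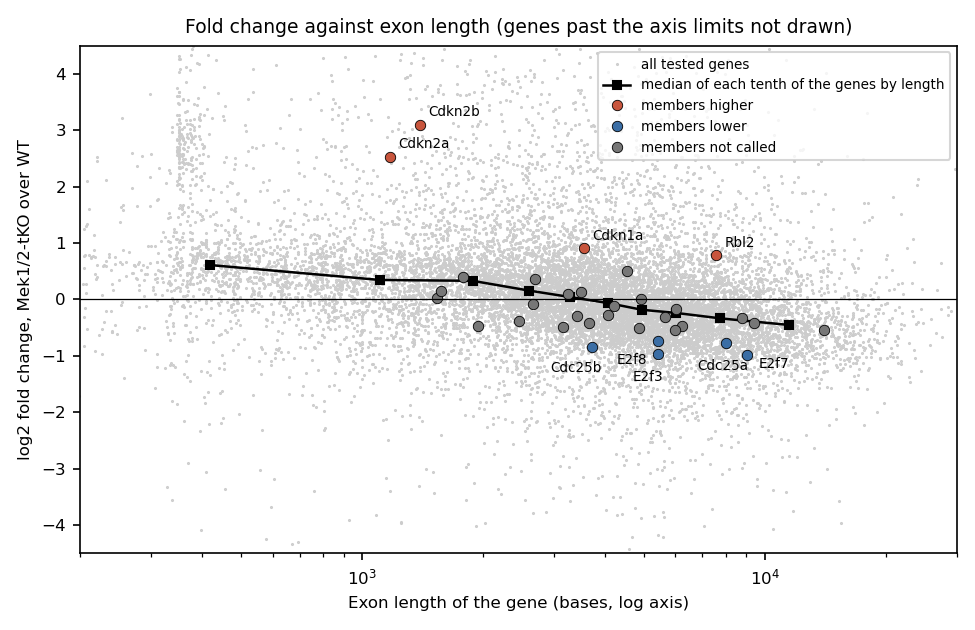
Log2 fold change, Mek1/2-tKO over WT, against exon length in bases on a log axis, for all tested genes in grey and the 33 members as larger points, with black squares for the median of each of 10 groups of genes by length. The medians run from 0.61 for the shortest to -0.45 for the longest genes, and Cdkn1a and Rbl2 lie above the line while Cdc25b and E2f3 lie below it.

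Genes that act next to these members were read from 8 further lists of 187 genes outside the members, of which 186 were matched and 180 tested. Of these, 18 were called higher (10%) and 55 lower (30.6%), beside 19.3% and 16.4% of all tested genes, with a median log2 fold change of -0.27. With the length trend taken out, 24 were higher and 37 lower. The values of the single lists and named genes below still hold this trend, and its part in them was not tested. The lower genes were most frequent in the lists of DNA synthesis and division. Of 30 S-phase genes under E2F control 13 were lower and 0 higher, with a median log2 fold change of -0.51, and 24 of the 30 had an unadjusted p under 0.05 in either direction, beside 59.5% of all tested genes. The named examples were Brca1 (DNA repair), which fell from 53.9 ± 5.36 to 21.1 ± 0.105 CPM (SD, n = 2 each), the maintenance methyltransferase Dnmt1, from 471 ± 23.8 to 192 ± 19.6 CPM, and the polymerase subunit Pole, from 102 ± 6.38 to 41.9 ± 1.78 CPM. Of 26 genes of G2 and mitosis 13 were lower and 0 higher, with a median of -0.61, and 22 had an unadjusted p under 0.05 (59.5% of all tested genes). Here the proliferation marker Mki67 fell from 308 ± 9.13 to 133 ± 11.96 CPM, the topoisomerase gene Top2a from 639 ± 3.19 to 272 ± 10.7 CPM and the kinetochore gene Cenpf from 37.5 ± 4.86 to 15.6 ± 2.25 CPM.

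Of 19 tested regulators of checkpoints and of CDK activation, 8 were lower (42.1%, beside 16.4% of all tested genes) and 0 higher (beside 19.3%). Their median was -0.41, and 14 had an unadjusted edgeR p under 0.05, beside 59.5% of all tested genes. Mastl, Topbp1 and Atr were at log2 fold changes of -1.09, -1.08 and -1.03. In the DREAM and MuvB complexes, pocket proteins and E2F repress cell-cycle genes in resting cells, and MYB and FOXM1 switch on late genes in dividing cells. Of 12 genes in their list, 4 were lower (33.3%, beside 16.4% of all tested genes) and 2 higher (16.7%, beside 19.3%). Log2 fold changes in the list ran from -1.14 to 1.39, and the gene with the largest rise did not meet the naming rule given below. Mybl2 fell from 105 ± 2.32 to 47.7 ± 4.04 CPM, Foxm1 from 53.8 ± 1.02 to 25.6 ± 0.276 CPM, and Tfdp2, a second DP subunit, from 23.8 ± 0.186 to 10.9 ± 0.788 CPM (SD, n = 2 each). Of the 18 p53 targets tested besides Cdkn1a, 7 were higher (38.9%, beside 19.3% of all tested genes) and 1 lower (5.56%, beside 16.4%). Their median log2 fold change was 0.27. Trp53inp1 rose from 12.8 ± 1.04 to 42.4 ± 1.16 CPM and Phlda3 from 5.88 ± 0.409 to 17.2 ± 1.14 CPM, while Sesn2 fell from 53.6 ± 2.77 to 18.6 ± 1.88 CPM. A list of genes that relay or oppose growth signals to the D-type cyclins held 22 genes. Of these, 5 were higher (22.7%, beside 19.3% of all tested genes) and 8 lower (36.4%, beside 16.4%). The largest changes were those of Klf2, a factor of resting T cells, with 5.58 ± 1.79 CPM in WT against 100 ± 6.87 CPM in Mek1/2-tKO, of the MYC antagonist Mxd4, with 6.498 ± 0.681 and 34.3 ± 0.790 CPM, and of Jun, with 55.0 ± 0.681 and 180 ± 27.4 CPM.

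**Figure D5:**
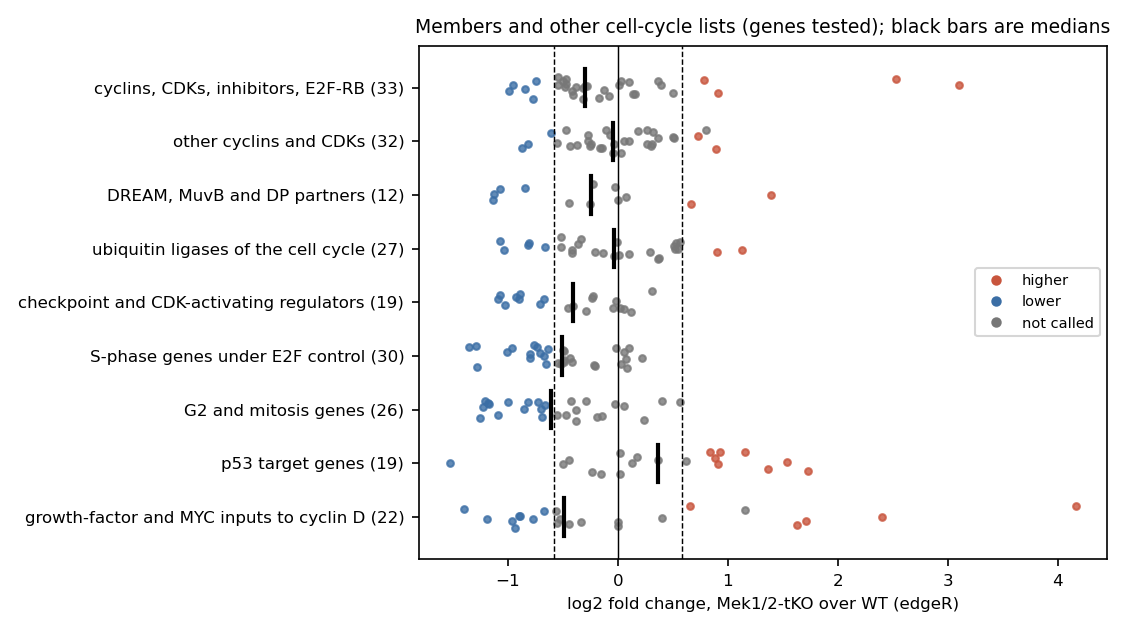
Log2 fold change, Mek1/2-tKO over WT, of every tested gene of the member list and the 8 further lists, with the number of genes in brackets, black bars for medians and dashed lines at a 1.5-fold change. The medians of the S-phase (-0.51) and mitosis lists (-0.61) lie lowest and that of the p53 targets (0.36, drawn with the member Cdkn1a) highest.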

How the data were processed

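RNA of 2 WT and 2 Mek1/2-tKO cultures was sequenced with a stranded mRNA kit as read pairs. The authors trimmed the reads with Trimmomatic 0.36, mapped them to GRCm38, counted those with 1 mapping position by featureCounts (Subread 1.5.1) and deposited the raw counts per gene and library. Which annotation was counted, and whether by strand, is not given in the sources used here.

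After filterByExpr and TMM scaling, a robust quasi-likelihood model was fitted to the counts in edgeR 4.0.16 (R 4.3.3), p values were adjusted by Benjamini-Hochberg over all 14330 tested genes, and the fits were tested on simulated data. CPM and RPKM (CPM per kilobase of the union of exons) used TMM library sizes. Libraries of a genotype differed by more than sampling noise (chi-square per gene 4.19 in WT and 10.9 in Mek1/2-tKO). The members and lists were chosen with earlier results of these data known. Members that were called or had one of the 10 largest changes are given by library, and of each further list the 3 called genes with the largest change at a mean of at least 5 CPM are named. Symbols were matched to all but 29 identifiers, and 1 pathway and 3 gamma-delta symbols found no match. Alternatives were DESeq2 1.42.0, other scalings, filters and thresholds, a replicate block and leaving out each library. The trends on exon length and on GC content (lowess, span 0.3) were added after the data were seen. Sequences are from RefSeq. Figures were drawn with matplotlib 3.10.9.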

Additional observations from a re-analysis of the deposited data

How the results depend on the processing

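Of the 9 called members, all were called in the same direction with the replicate block, with DESeq2 or its size factors, with library size as the only scaling, and with no filter or one of at least 10 counts per library. With the replicate block 4 members were higher and 5 lower, and 2652 and 2300 of all genes. The replicate numbers share no stated animal or day, and deviations of libraries with the same number correlated at -0.02, so that no pairing was used. With a fold change of at least 2, 2 members were higher and 0 lower (7 and 17 with no fold change threshold), as were 10 and 22 of the pathway genes (36 and 93 with no threshold) and 1725 and 1040 of all genes (3903 lower with no threshold). When single libraries were left out, 3 to 4 members were higher and 4 to 10 lower, with 10 without Mek1/2-tKO replicate 2. With the exon length trend taken out, 1557 of all genes were lower. Library size scaling moved the higher share of all calls from 54.0% to 45.6%.

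The sign changed only for members that were not called. With library size alone Ccnb2 was at -0.055 and Cdk1 at -0.079, and with no filter Cdk1 was at -0.0038. With the exon length trend taken out, Ccnd3 was at 0.056, Ccnb2 at -0.24, Cdkn2d at -0.11 and Rb1 at 0.10. With each library left out, Ccne2 ranged from -0.013 to 0.27, Ccnb2 from -0.010 to 0.068 and Cdk1 from -0.068 to 0.074. The causes were not tested. The low counts of Ccnd1 and Cdkn1c limit what can be said of them.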

Other observations

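A further list held 32 tested genes outside the members. Most were other cyclins and CDKs, many of which serve transcription, and the rest, such as Cdkn3, were grouped with them. Of these 32 genes, 2 were higher (6.25%, beside 19.3% of all tested genes) and 3 lower (9.38%, beside 16.4%). An unadjusted edgeR p under 0.05 was reached by 18, beside 59.5% of all tested genes, and the median log2 fold change was -0.04. Ccnt1 and Ccnk, the cyclins of kinases that drive elongation by RNA polymerase II, fell from 62.1 ± 6.61 to 33.8 ± 2.21 CPM and from 55.0 ± 1.41 to 31.1 ± 2.99 CPM (SD, n = 2 each). Cdkn3, a phosphatase that acts on CDKs, had 9.15 ± 1.65 CPM in WT against 17.0 ± 5.78 CPM in Mek1/2-tKO, with a log2 fold change of 0.89 (adjusted p = 0.00494 from edgeR).

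A list around the ubiquitin ligases that break down cyclins and inhibitors held 27 genes, not all of them ligase genes. Of these 27 genes, 2 were higher (7.41%, beside 19.3% of all tested genes) and 5 lower (18.5%, beside 16.4%), with a median log2 fold change of -0.03. Subunits of the anaphase-promoting complex moved in opposite directions, with Anapc13 at 18.9 ± 2.04 CPM in WT against 41.2 ± 6.07 CPM in Mek1/2-tKO and Anapc1 at 221 ± 0.935 and 108 ± 1.06 CPM. These values still hold the exon length trend described above, and its part in them was not tested. Usp37, which was grouped with the ligases and is not one of them, fell from 40.8 ± 7.25 to 19.4 ± 1.44 CPM.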
